A study of Mus musculus with 12 samples.

Results

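The cadherin and protocadherin genes were examined in ATAC-seq peak lists of cells sorted from endpoint tumours of Ptch1+/- mice. ATAC-seq marks DNA that a transposase can reach, and SHH medulloblastoma is a tumour of the cerebellum in which the hedgehog pathway is overactive. Members were all protein-coding genes of the mouse gene table whose symbol was Cdh with a number or began with Pcdh, which gave 92 of 21896 genes. The Pcdha, Pcdhb and Pcdhg gene clusters were each taken as 1 locus of 14, 22 and 21 genes, so the members made 38 of 21842 loci. Each peak went to the protein-coding span nearest to its midpoint, up to a distance of 100 kb. The first sort gave SOX2+ cells with eGFP signal and SOX2- cells without it, in 4 libraries each. The second sort divided SOX2+ cells by RFP into SOX2+/MKI67+ and SOX2+/MKI67- cells, in 2 libraries each. Every group carried the Ptch1+/- genotype and had no treatment. The labels give no age, do not describe how the eGFP and RFP signals were driven, and do not state whether replicates came from separate animals. The p-values therefore measure the spread between these libraries, which may be technical.

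Cadherins are membrane proteins that hold cells of like type together through calcium-dependent binding of their extracellular repeats. The classical type I and type II cadherins bind catenins inside the cell and through them the actin cytoskeleton. The delta protocadherins signal to actin by other routes, and the clustered protocadherins give each neuron its own surface identity through stochastic choice among many first exons. In the developing cerebellum, cadherins act in the migration of granule neuron progenitors, the cells from which SHH medulloblastoma arises.

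Among member loci in SOX2+ against SOX2- cells, the smallest p-values were at Pcdh10, Cdh22 and Cdh11, with more peaks in SOX2+ libraries, and at Cdh7, Cdh4 and Cdh12, with fewer. None of the 34 loci tested passed the adjusted threshold, which 0.860% of all loci passed in this comparison, 0.212% in SOX2+/MKI67+ against SOX2+/MKI67-, 0.980% in SOX2+/MKI67- against SOX2- and 0.536% in SOX2+/MKI67+ against SOX2-. At the level of single regions, 13 regions at 12 of the loci were in at least 3 of 4 SOX2+ libraries and in 0 of 4 SOX2- libraries (6.40% of member regions, against 4.10% of all regions), and 1 region was of the opposite kind (0.493%, against 1.54%). Of the 13, 6 were also listed in all 4 libraries of the MKI67 sort. The shares were not matched for position. Fewer member regions lay within 1 kb of a gene end (12.8%, against 27.3%), where 195 of all 12060 regions were of the SOX2+ kind. The Pcdhb cluster had no peak in any library, whereas the starts of Pcdhac1 and Pcdhgc3, C-type genes of the Pcdha and Pcdhg clusters, were listed in all 12 libraries. The other C-type starts were listed in fewer (8, 2 and 0 libraries for Pcdhac2, Pcdhgc4 and Pcdhgc5).

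The sequences of the windows around gene starts are shown for 6 members, because these windows differed in how often a peak was listed while the regions above lay outside them. Each is the RefSeq window of GRCm38.p6, the assembly with mm10 coordinates, from 250 bases before to 50 bases after a gene start, printed 5′ to 3′ on the strand of the gene with CpG dinucleotides in capitals. Pcdh10 lies at chr3:45378148-45378447 on the + strand, Pcdh19 at chrX:133688944-133689243 on the - strand and Cdh22 at chr2:165234688-165234987 on the - strand. Cdh7 lies at chr1:109982650-109982949 on the + strand, Cdh10 at chr15:18820079-18820378 on the + strand and Pcdh20 at chr14:88471347-88471646 on the - strand.
Pcdh10: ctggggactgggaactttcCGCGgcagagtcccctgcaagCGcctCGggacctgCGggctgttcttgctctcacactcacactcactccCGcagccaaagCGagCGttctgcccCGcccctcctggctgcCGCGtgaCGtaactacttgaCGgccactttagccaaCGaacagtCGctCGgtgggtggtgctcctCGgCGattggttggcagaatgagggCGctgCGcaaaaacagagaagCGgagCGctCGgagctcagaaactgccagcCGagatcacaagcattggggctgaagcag
Pcdh19: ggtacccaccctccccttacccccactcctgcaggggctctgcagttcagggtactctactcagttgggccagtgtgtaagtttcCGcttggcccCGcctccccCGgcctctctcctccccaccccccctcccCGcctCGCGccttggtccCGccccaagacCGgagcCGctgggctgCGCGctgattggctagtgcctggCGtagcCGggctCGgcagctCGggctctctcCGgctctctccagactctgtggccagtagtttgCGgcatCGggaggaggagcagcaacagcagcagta
Cdh22: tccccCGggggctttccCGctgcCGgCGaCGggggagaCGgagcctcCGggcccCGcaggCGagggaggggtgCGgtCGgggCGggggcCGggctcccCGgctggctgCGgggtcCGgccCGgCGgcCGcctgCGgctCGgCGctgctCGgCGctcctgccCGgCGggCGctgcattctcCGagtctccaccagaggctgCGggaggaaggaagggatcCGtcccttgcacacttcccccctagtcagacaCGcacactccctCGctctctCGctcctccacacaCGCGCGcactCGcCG
Cdh7: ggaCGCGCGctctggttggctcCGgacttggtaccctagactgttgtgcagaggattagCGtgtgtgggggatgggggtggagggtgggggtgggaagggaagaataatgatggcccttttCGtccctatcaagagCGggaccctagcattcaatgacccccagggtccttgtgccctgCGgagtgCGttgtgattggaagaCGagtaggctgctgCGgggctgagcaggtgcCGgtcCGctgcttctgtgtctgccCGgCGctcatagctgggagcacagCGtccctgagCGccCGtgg
Cdh10: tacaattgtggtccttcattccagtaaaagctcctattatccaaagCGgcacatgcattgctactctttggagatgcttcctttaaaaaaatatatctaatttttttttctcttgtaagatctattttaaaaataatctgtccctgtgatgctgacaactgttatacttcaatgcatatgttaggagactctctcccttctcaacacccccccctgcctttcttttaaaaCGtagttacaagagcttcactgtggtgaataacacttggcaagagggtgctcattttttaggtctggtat
Pcdh20: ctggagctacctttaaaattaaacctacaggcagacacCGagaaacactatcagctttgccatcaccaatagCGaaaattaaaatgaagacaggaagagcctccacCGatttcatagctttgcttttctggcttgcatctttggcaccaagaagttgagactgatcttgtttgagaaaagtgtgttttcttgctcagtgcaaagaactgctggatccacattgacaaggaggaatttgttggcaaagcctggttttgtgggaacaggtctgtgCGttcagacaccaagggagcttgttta

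The Pcdh10 and Pcdh19 windows, with 24 and 18 CpG, overlapped a peak in all 12 libraries. The Cdh22 window, with 38 CpG, overlapped one in 10 libraries and was missing from SOX2- replicates 1 and 3. The Cdh7 window, with 18 CpG, overlapped a peak in 5 libraries, namely SOX2+ replicate 3, SOX2- replicates 2, 3 and 4 and SOX2+/MKI67+ replicate 2. The Cdh10 and Pcdh20 windows, with 2 and 4 CpG, overlapped none, although peaks were listed nearby. A region 65 bp from the Pcdh20 window (chr14:88470816-88471282) was listed in 9 libraries, and one 1144 bp from the Cdh10 window, at a gene end (chr15:18818487-18818935), in 10. CpG content did not order all members, since the Cdh20 window held 18 CpG and overlapped no peak. In all, 22 members matched the table with 25 windows. The 9 windows listed in 11 or 12 libraries came from 8 genes, with a pair of overlapping windows at Pcdh9. These 9 had a median of 19 CpG and the 7 listed in none had a median of 4 CpG. Over all 21262 windows of protein-coding genes the corresponding medians were 25 and 4 CpG. Windows in 11 or 12 libraries made up 36.0% of the member windows and 28.9% of all windows.

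Short motifs were searched on both strands of these windows. ACAANG, the letters of a SOX-type site, was found in 12 of 25 member windows (48.0%, against 38.1% of all windows). Among them were that of Pcdh20, both overlapping windows of Pcdh9 and a pair of the Cdh7 windows, the printed one included. The letters were in none of the windows of Pcdh10, Pcdh19, Cdh22 or Cdh10. CAGGTG, an E-box bound by the Snail and Zeb repressors of cadherin genes, was found in 5 (20%, against 19.7%), including all 3 windows of Cdh7. CAGCTG, an E-box of the kind bound by Atoh1, was found in 3 (12%, against 15.6%). GACCACCCA, the hedgehog-responsive GLI site, was found in 0 (against 0.179% of all windows). These matches describe the letters of the windows only.

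The lists differed in length from 7009 peaks in SOX2- replicate 1 to 26206 in SOX2- replicate 2, and read depth is not given in the files. Sox2 itself had 5, 2, 6 and 4 peaks in SOX2+ libraries and 0, 1, 1 and 1 in SOX2- libraries. Granule neuron progenitor markers (12 loci) had 1.07 to 12.7 peaks per 10000 in SOX2+ libraries, 14.3 to 21.4 in SOX2- libraries, 10.7 to 12.2 in SOX2+/MKI67+ libraries and 5.68 to 6.24 in SOX2+/MKI67- libraries. SOX2+ replicate 3 had the highest SOX2+ value, 12.7, while the other SOX2+ libraries had 4.77, 1.07 and 7.91 peaks per 10000. Barhl1 and Nhlh1 were at 0 in every SOX2+ library. Oligodendrocyte lineage markers (12 loci) ran from 10.2 to 16.0 per 10000 in SOX2+ libraries and from 4.28 to 7.38 in SOX2- libraries, with Sox10, Nkx2-2, Gpr17 and Sox8 among those at 0 in SOX2-. Astrocyte and Bergmann glia markers (10 loci) ran from 5.33 to 10.2 per 10000 in SOX2+ libraries and from 2.37 to 8.30 in SOX2- libraries, with Fabp7, Aqp4, Aldh1l1 and S100b at 0 in SOX2-. Microglia and macrophage markers (12 loci) ran from 1.53 to 2.77 per 10000 in SOX2+ libraries and from 0 to 1.38 in SOX2- libraries, without overlap, while C1qa, Csf1r and Cx3cr1 were among 8 of them at 0 in both groups. The part of these markers in the results on member loci was not tested.

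Cadherin loci as a whole held a similar share of the peaks in the sorted groups. Per 10000 peaks, 33.4, 32.0, 42.3 and 40.0 lay at member loci in the SOX2+ libraries (replicate order) and 25.7, 42.0, 28.4 and 39.2 in the SOX2- libraries, and the groups overlapped. The values were 36.8 and 40.5 in SOX2+/MKI67+ libraries and 33.8 and 31.2 in SOX2+/MKI67- libraries, which did not overlap. The share was lowest in the shortest list. With every list reduced to its 7009 best peaks, the lowest and highest shares were 24.3 and 40.0 per 10000 in SOX2+ libraries and 22.8 and 25.7 in SOX2- libraries, and 18.6 and 32.8 in SOX2+/MKI67+ against 22.8 and 27.1 in SOX2+/MKI67-. Of 38 loci, 35 had a peak in at least 1 library (92.1%, against 69.2% of all loci) and 11 had one in all 12 libraries (28.9%, against 23.2%). Member spans were long, with a median of 138.1 kb against 17.1 kb for all loci. Loci without a peak were Cdh1 (E-cadherin, of epithelia), Pcdh12 (of endothelium and trophoblast) and the Pcdhb cluster. Cdh17, of the intestine, had a peak in SOX2+/MKI67+ replicate 1 only. The other 34 loci had a peak in at least 2 libraries and were tested.

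**Figure D1:**
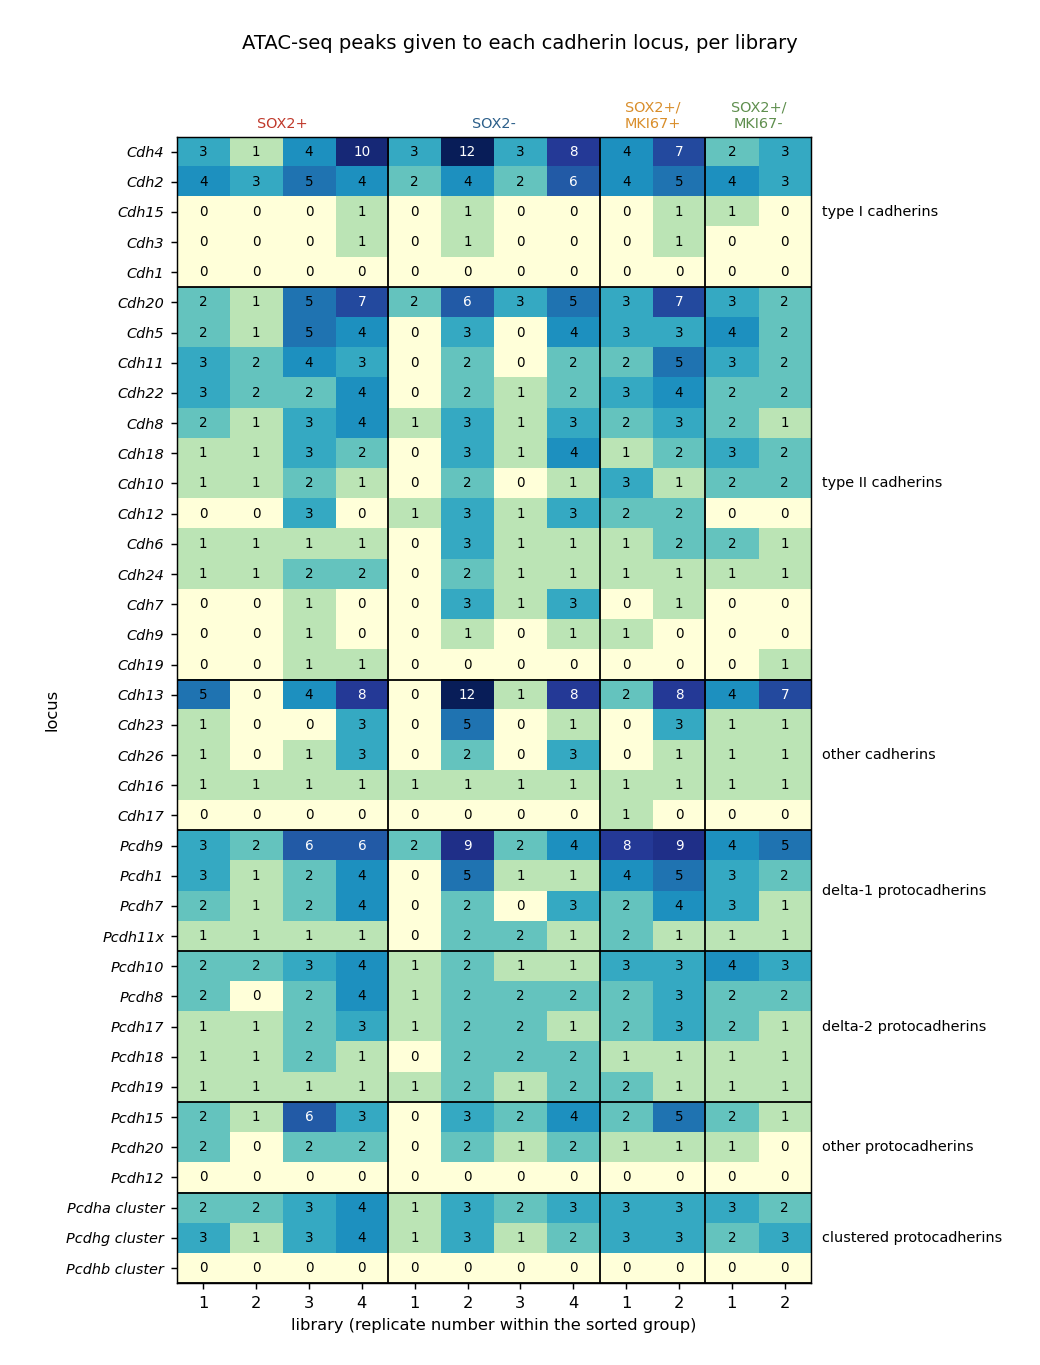
Number of peaks given to each of the 38 loci (rows, by subfamily) in each of the 12 libraries (columns, by sorted group); darker cells hold more peaks on a log2(peaks + 1) colour scale. Cdh4, Cdh13, Cdh20, Cdh2 and Pcdh9 hold the most peaks, while Cdh1, Pcdh12 and the Pcdhb cluster hold 0 in every library.

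Differences were fitted with limma on log2(peaks + 1) over all 14179 loci with a peak in at least 2 libraries, with the list length as a covariate. All 4 groups shared 1 estimate of spread. A locus was called at an adjusted p under 0.05 (Benjamini-Hochberg over all loci tested). In SOX2+ against SOX2- cells, 0 of 34 member loci were called, against a background of 0.860% of all loci (122). At an unadjusted p under 0.05 there were 6 of 34 (17.6%, against 13.3% of all loci), with 3 higher (background 6.85%) and 3 lower (background 6.45%). The median log2 difference was -0.02 over the 34 members and 0.00 over all loci. No member had SOX2+ and SOX2- libraries that did not overlap, against 1.08% of all loci in the higher and 0.120% in the lower direction.

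The 3 loci with more peaks in SOX2+ cells had at least 2 peaks in every SOX2+ library. Pcdh10 encodes a delta-2 protocadherin that recruits the WAVE actin regulators. It had 2, 2, 3 and 4 peaks in SOX2+ libraries and 1, 2, 1 and 1 in SOX2- libraries, a log2 difference of 0.68 ± 0.16 (SE; adjusted p = 0.121 in limma). The groups met at 2 peaks, reached in SOX2- only by replicate 2. With only peaks within 1 kb of gene ends counted, the difference was 0, since the start of the gene was listed in all 12 libraries. Cdh22, a type II cadherin of brain and pituitary, had 3, 2, 2 and 4 peaks in SOX2+ libraries and 0, 2, 1 and 2 in SOX2- libraries, a log2 difference of 0.72 ± 0.17 (SE; adjusted p = 0.122 in limma). Cdh11, a type II cadherin of mesenchymal cells, had 3, 2, 4 and 3 peaks in SOX2+ libraries and 0, 2, 0 and 2 in SOX2- libraries, a log2 difference of 1.06 ± 0.27 (SE; adjusted p = 0.163 in limma). At both loci the groups met at 2 peaks, and the SOX2- zeros of Cdh11 were in replicates 1 and 3, the shortest lists of that group. The regions behind these counts differed in kind. Pcdh10 and Cdh22 each had 1 region in 4 of 4 SOX2+ and 0 of 4 SOX2- libraries. Cdh11 had none of that kind but a pair, at chr8:102738985-102739546 and, at a gene end, chr8:102784884-102785571, each in 4 of 4 SOX2+ libraries and in SOX2- replicates 2 and 4.

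The 3 loci with fewer peaks in SOX2+ cells were uneven across SOX2+ libraries. Cdh7, a type II cadherin of the developing brain, had 0, 0, 1 and 0 peaks in SOX2+ libraries and 0, 3, 1 and 3 in SOX2- libraries, a log2 difference of -1.13 ± 0.33 (SE; adjusted p = 0.190 in limma). Cdh12, a type II cadherin of neurons, had 0, 0, 3 and 0 peaks in SOX2+ libraries and 1, 3, 1 and 3 in SOX2- libraries, a log2 difference of -1.08 ± 0.45 (SE; adjusted p = 0.352 in limma). At both loci the only SOX2+ library with a peak was replicate 3, the one with the most granule neuron progenitor marker peaks. Without that library, limma gave adjusted p = 0.0299 for Cdh12 with a log2 difference of -1.53 ± 0.20 (SE), and adjusted p = 0.0338 for Cdh22 with 0.87 ± 0.12 (SE). Those 2 members were then past the threshold, with 102 loci called of 14107. This was 1 of 12 fits that each left out 1 library. It removed the only SOX2+ peaks of Cdh12, which narrows the spread there. The SE of Cdh22 narrowed too, from 0.17 to 0.12. Neither adjusted p gives separate support. Cdh4 (R-cadherin), a type I cadherin of brain and retina, had 3, 1, 4 and 10 peaks in SOX2+ libraries and 3, 12, 3 and 8 in SOX2- libraries, a log2 difference of -0.70 ± 0.28 (SE; adjusted p = 0.339 in limma). Its counts followed list length within both groups and the groups overlapped over most of their range. In lists reduced to 7009 peaks, Cdh7 had no peak in any library, Cdh12 had 1 peak in SOX2- replicate 1 alone, and neither was tested. Cdh22 then had 0, 0, 1 and 0 peaks in SOX2+ libraries and 0 in each SOX2- library, a log2 difference of 0.25 ± 0.32 (SE). Cdh11 kept 2, 0, 2 and 1 peaks in SOX2+ libraries and 0 in each SOX2- library, a log2 difference of 1.04 ± 0.45 (SE).

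**Figure D2:**
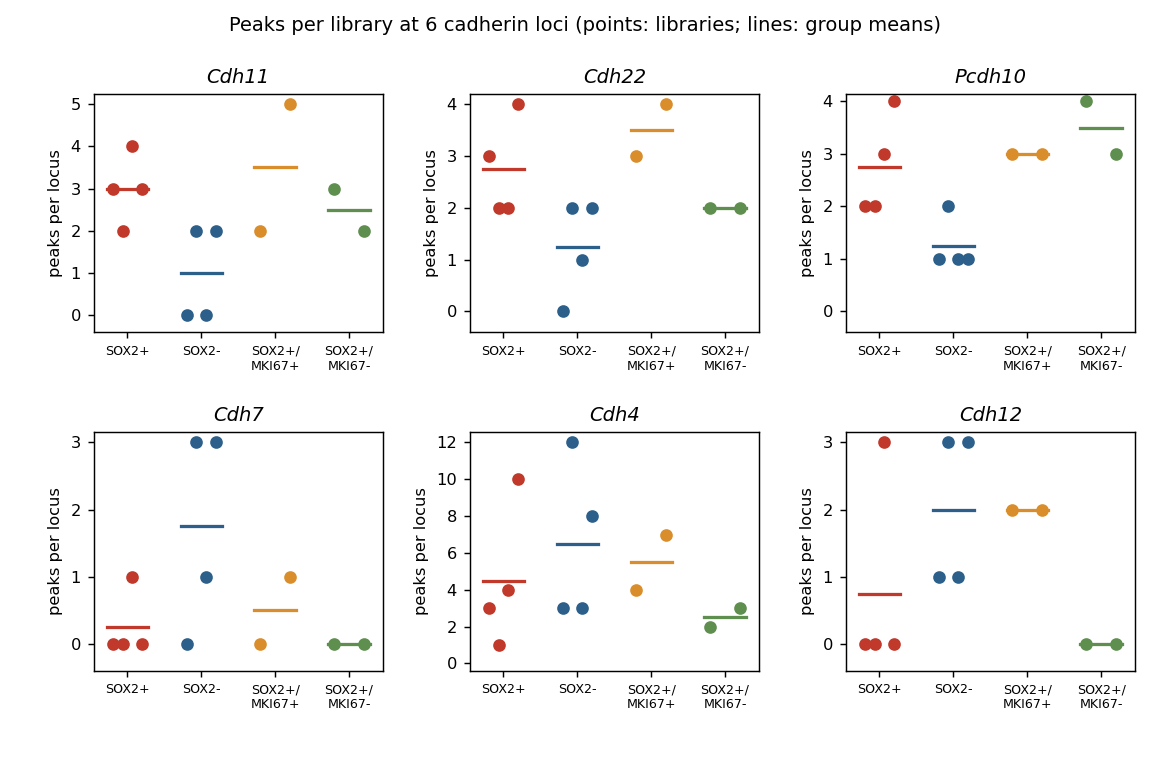
Peaks per locus (y axis) in each library (points) of the 4 sorted groups at the 6 loci with an unadjusted p under 0.05 in SOX2+ against SOX2- cells; horizontal lines are group means. Cdh11, Cdh22 and Pcdh10 have at least 2 peaks in all SOX2+ libraries, and the single SOX2+ point above 0 at Cdh7 and Cdh12 is replicate 3.

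Other named members differed by less. The next by p-value, Pcdh19, Pcdh7, Cdh24, Cdh5, Cdh19 and the Pcdhg cluster, had adjusted p from 0.480 to 0.611 in limma. Pcdh19, a delta-2 protocadherin whose loss causes an epilepsy in girls, had 1 peak in each SOX2+ library and 1, 2, 1 and 2 in SOX2- libraries, a log2 difference of -0.32 ± 0.16 (SE). Cdh5 (VE-cadherin, of endothelial junctions) had 2, 1, 5 and 4 peaks in SOX2+ libraries and 0, 3, 0 and 4 in SOX2- libraries, a log2 difference of 0.60 ± 0.34 (SE) that was -0.28 with peaks within 10 kb only. Endothelial markers (12 loci) ran from 1.07 to 5.96 peaks per 10000 in SOX2+ libraries and from 1.43 to 6.11 in SOX2- libraries, with Tie1 and Cldn5 at 0 in both groups. Fewer cells of a type and less open chromatin per cell cannot be told apart in sorted bulk cells. Pcdh7, a delta-1 protocadherin, had 2, 1, 2 and 4 peaks in SOX2+ libraries and 0, 2, 0 and 3 in SOX2- libraries, a log2 difference of 0.56 ± 0.30 (SE). Cdh24, a type II cadherin, had 1, 1, 2 and 2 against 0, 2, 1 and 1, and Cdh19, known from Schwann cells, 0, 0, 1 and 1 against 0 in all 4 SOX2- libraries. All 5 of these members overlapped between the groups.

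Cdh2 (N-cadherin), the main neural type I cadherin, had 4, 3, 5 and 4 peaks in SOX2+ libraries and 2, 4, 2 and 6 in SOX2- libraries, a log2 difference of 0.16 ± 0.19 (SE) that was -0.24 with gene ends only. Pcdh9, a delta-1 protocadherin of the brain, had 3, 2, 6 and 6 peaks in SOX2+ libraries and 2, 9, 2 and 4 in SOX2- libraries, with equal means of 4.25. Cdh13 (T-cadherin), which is held by a lipid anchor and has no cytoplasmic tail, had 5, 0, 4 and 8 peaks in SOX2+ libraries and 0, 12, 1 and 8 in SOX2- libraries. These 3 loci overlapped between the groups, and the counts of Cdh13 were lowest in the short lists of each group. Cdh20, a type II cadherin, had 2, 1, 5 and 7 peaks in SOX2+ libraries and 2, 6, 3 and 5 in SOX2- libraries, and Cdh10, a type II cadherin of neurons, had 1, 1, 2 and 1 against 0, 2, 0 and 1. Pcdh15, which forms the tip links of hair cells, had 2, 1, 6 and 3 peaks in SOX2+ libraries and 0, 3, 2 and 4 in SOX2- libraries. Pcdh17, a delta-2 protocadherin of axons and synapses, had 1, 1, 2 and 3 against 1, 2, 2 and 1. None of these 4 loci separated the groups, and their fitted differences lay between -0.35 (Cdh20, but 0.27 with peaks within 10 kb only) and 0.42 (Cdh10) on the log2 scale. The log2 difference of Pcdh15 was -0.03 without SOX2+ replicate 3, and that of Pcdh17 was -0.09 without SOX2+ replicate 4 and -0.15 without SOX2- replicate 4, where the fit of all libraries gave values above 0. By subfamily, 4 of 13 type II cadherins tested had an unadjusted p under 0.05, as did 1 of 4 type I cadherins, 1 of 5 delta-2 protocadherins and 0 of 4 delta-1 protocadherins, against 13.3% of all loci. The median log2 differences of these subfamilies were 0.11, -0.08, -0.13 and 0.19, against 0.00 over all loci. Cdh15 (M-cadherin), of muscle and cerebellar granule cells, had 1 peak in SOX2+ replicate 4, 1 in SOX2- replicate 2 and none in the other libraries of that sort.

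**Figure D3:**
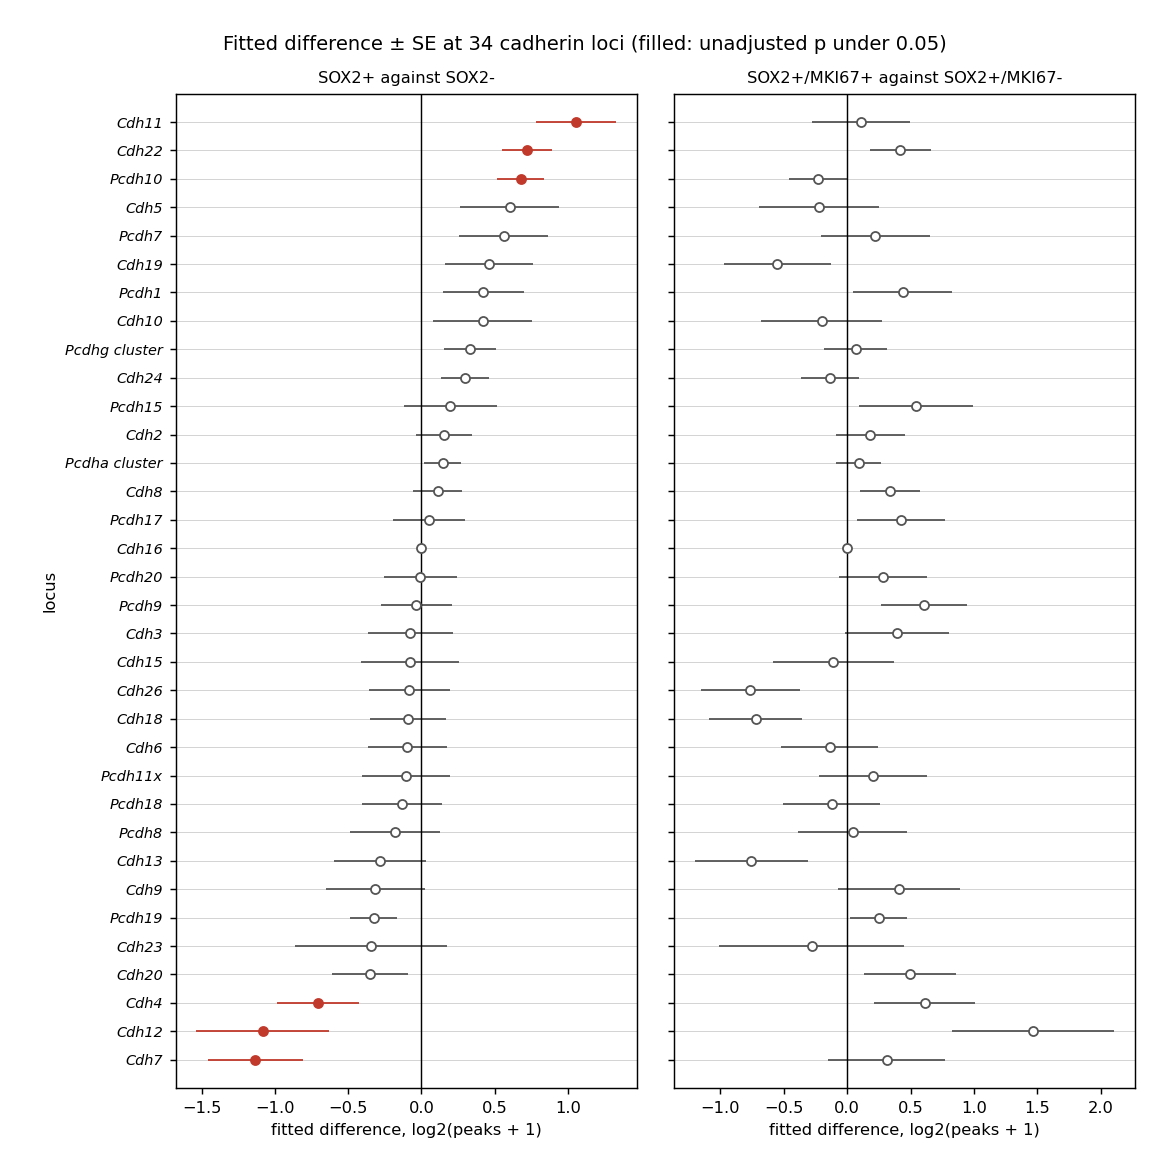
Fitted difference in log2(peaks + 1) with its SE (x axis) at the 34 member loci tested (rows), SOX2+ against SOX2- on the left and SOX2+/MKI67+ against SOX2+/MKI67- on the right; filled points have an unadjusted p under 0.05. On the left Cdh11 (1.06) and Cdh7 (-1.13) are the ends of the range, and on the right Cdh12 (1.47) has the highest value with no filled point.

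In SOX2+/MKI67+ against SOX2+/MKI67- cells, 0 of 34 members were called by limma, against 0.212% of all loci (30), and 0 had an unadjusted p under 0.05, against 4.64% of all loci. The median log2 difference was 0.15 over the members and -0.02 over all loci, and 21 of 34 members had a difference above 0 (61.8%, against 35.8% of all loci tested). These shares were not matched for span, which was longer at members (median 138.1 kb, against 17.1 kb). At 5 members the libraries did not overlap, all with more peaks in SOX2+/MKI67+ cells (14.7%, against 7.98% of all loci). Cdh12 had 2 and 2 peaks in SOX2+/MKI67+ libraries and 0 and 0 in SOX2+/MKI67- libraries, a log2 difference of 1.47 ± 0.64 (SE; adjusted p = 1.0 in limma). In the upper 50% of each list by q-value Cdh12 had no peak in either group, and the fitted -0.07 came from the list length term. Pcdh9 had 8 and 9 peaks against 4 and 5 in these groups, and Pcdh1, another delta-1 protocadherin, 4 and 5 against 3 and 2. Cdh4 had 4 and 7 peaks in SOX2+/MKI67+ libraries and 2 and 3 in SOX2+/MKI67- libraries, and Cdh22 had 3 and 4 against 2 and 2. Cdh18, a type II cadherin, and Cdh26 had fitted differences of -0.72 ± 0.37 and -0.76 ± 0.39 (SE, log2), with libraries that overlapped or met, and Cdh26 stood at 0.39 in the upper 50% of each list. With every list reduced to its 7009 best peaks, none of the 5 loci kept groups apart. Cdh12 then had no peak in either group and Pcdh9 had 2 in each library. Cdh22 had 0 and 1 peaks in SOX2+/MKI67+ libraries and 0 and 1 in SOX2+/MKI67- libraries, Pcdh1 had 1 and 0 against 0 and 1, and Cdh4 had 2 and 0 against 0 and 0. With 2 libraries in each group these orders rest on few values. Granule neuron progenitor markers also stood higher in SOX2+/MKI67+ libraries (10.7 and 12.2 per 10000 peaks) than in SOX2+/MKI67- libraries (6.24 and 5.68), and their part in these orders was not tested.

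The remaining comparisons set the MKI67 sort against SOX2- cells of the other sort, so sort and group cannot be told apart, and they share the SOX2- libraries with the comparison of SOX2+ and SOX2- cells. In SOX2+/MKI67- against SOX2- cells, 0 members were called, against 0.980% of all loci, and 5 had an unadjusted p under 0.05 (14.7%, against 14.4%). In SOX2+/MKI67+ against SOX2- cells, 0 members were called, against 0.536% of all loci, and 5 had an unadjusted p under 0.05 (14.7%, against 9.49%). Pcdh10 had 4 and 3 peaks in SOX2+/MKI67- libraries and 3 and 3 in SOX2+/MKI67+ libraries, all above the 1 to 2 peaks of SOX2- libraries. It was the only member higher without overlap in SOX2+/MKI67- cells (background 5.88%), and Cdh12, at 0 and 0, the only one lower (background 0.656%). Cdh22 and Pcdh10 were higher without overlap in SOX2+/MKI67+ cells (background 5.47%). The log2 difference of Pcdh10 was 0.93 ± 0.20 (SE; adjusted p = 0.111 in limma) in SOX2+/MKI67- against SOX2- cells and 0.70 ± 0.21 (SE; adjusted p = 0.305 in limma) in SOX2+/MKI67+ against SOX2- cells. Cdh7 had no peak in either SOX2+/MKI67- library and 0 and 1 in SOX2+/MKI67+ libraries.

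Joining peaks that shared 1 bp or more across the 12 lists gave 44242 regions, and 203 of them were at member loci. Member regions lay mostly inside gene spans (65.5%, against 38.5% of all regions), with 21.7% between genes (against 34.2%) and 12.8% within 1 kb of a gene end (against 27.3%). Of the 203, 9 were listed in all 12 libraries (4.43%, against 12.2%) and 64 in 1 library (31.5%, against 30.4%). Those listed everywhere lay at Cdh2, Cdh4, Cdh16, Pcdh9, Pcdh10, Pcdh17 and Pcdh19 and at the Pcdha and Pcdhg clusters.

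The 13 regions of SOX2+ cells were chosen without the libraries of the MKI67 sort. The labels do not say whether both sorts used the same tumours, so the MKI67 libraries may not be independent of the others. Those libraries listed 12 of the 13 in at least 1 library (92.3%, against 98.5% of all such regions) and 6 in all 4 libraries (46.2%, against 61.7%). These 6 were listed in 4 of 4 SOX2+ libraries too. All 8 libraries of SOX2+ cells thus held them and no SOX2- library did (2.96% of member regions, against 1.40% of all regions, not matched for position).

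The 6 regions lay inside the spans of 6 genes and outside the windows around their starts. The region of Pcdh10 was chr3:45384990-45385448, which is 6.8 kb after the gene start, while the start itself (chr3:45378125-45378527) was listed in all 12 libraries. The region of Cdh22 was chr2:165215340-165215848, 19.1 kb after the start. The region of Cdh20 was chr1:104771934-104772337, 3.6 kb after a start whose window was listed in no library. The remaining 3 were chr10:73826239-73826952 in Pcdh15, chr14:93543527-93544078 in Pcdh9, and chr8:99234312-99234963 in Cdh8, a type II cadherin of neurons. The Pcdh15 region lay 4.7 kb after a start, the Pcdh9 region 346.9 kb and the Cdh8 region 181.8 kb. Both Pcdh9 and Cdh8 thus carried a region of this kind while their peak counts per locus overlapped between SOX2+ and SOX2- libraries.

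The other 7 regions were less uniform. A region in Cdh2 (chr18:16713440-16713753) was listed in 4 of 4 SOX2+ libraries, in 0 of 4 SOX2- libraries and in 1 of 2 libraries of each MKI67 group. A pair of regions in Cdh13 (chr8:118379745-118380192 and chr8:118384332-118384728) was listed in 3 of 4 SOX2+ libraries, all but replicate 2, the shortest SOX2+ list. Regions near Pcdh1 (chr18:38213473-38213776) and near Cdh5 (chr8:104042375-104042847, 59.0 kb outside its span) and a region in the Pcdhg cluster (chr18:37824136-37824610) were also in 3 of 4. The region in Pcdh20 (chr14:88469377-88469762), 1.8 kb after the start, was in 3 of 4 SOX2+ libraries and in no library of the MKI67 sort. Pcdh20 is a protocadherin of the nervous system outside the clusters and the delta groups.

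The single region listed in SOX2- cells only lay near Cdh20, at chr1:105002202-105002596, 6.9 kb beyond the end of the span opposite to its SOX2+ region. It was listed in SOX2- replicates 2, 3 and 4 and in SOX2+/MKI67+ replicate 2. A further 4 regions were listed in at least 3 of 4 SOX2- libraries and, among SOX2+ libraries, in replicate 3 alone. They lay at the start of Cdh7 (chr1:109982337-109983168), inside Cdh12 (chr15:21008621-21009417), 71.8 kb from Pcdh8 (chr14:79842742-79843435) and 12.2 kb from Pcdh18 (chr3:49769408-49769712). Without SOX2+ replicate 3 the SOX2- count was thus 5 and the SOX2+ count, then asking for 3 of 3 libraries, was 8. SOX2- cells listed 680 such regions over all loci with that library and 1136 without it. For SOX2+ cells the counts over all loci were 1814 with it and 802 without it. Member regions numbered 203 with it and 202 without it. Both member counts thus moved in the same direction as those over all loci.

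**Figure D4:**
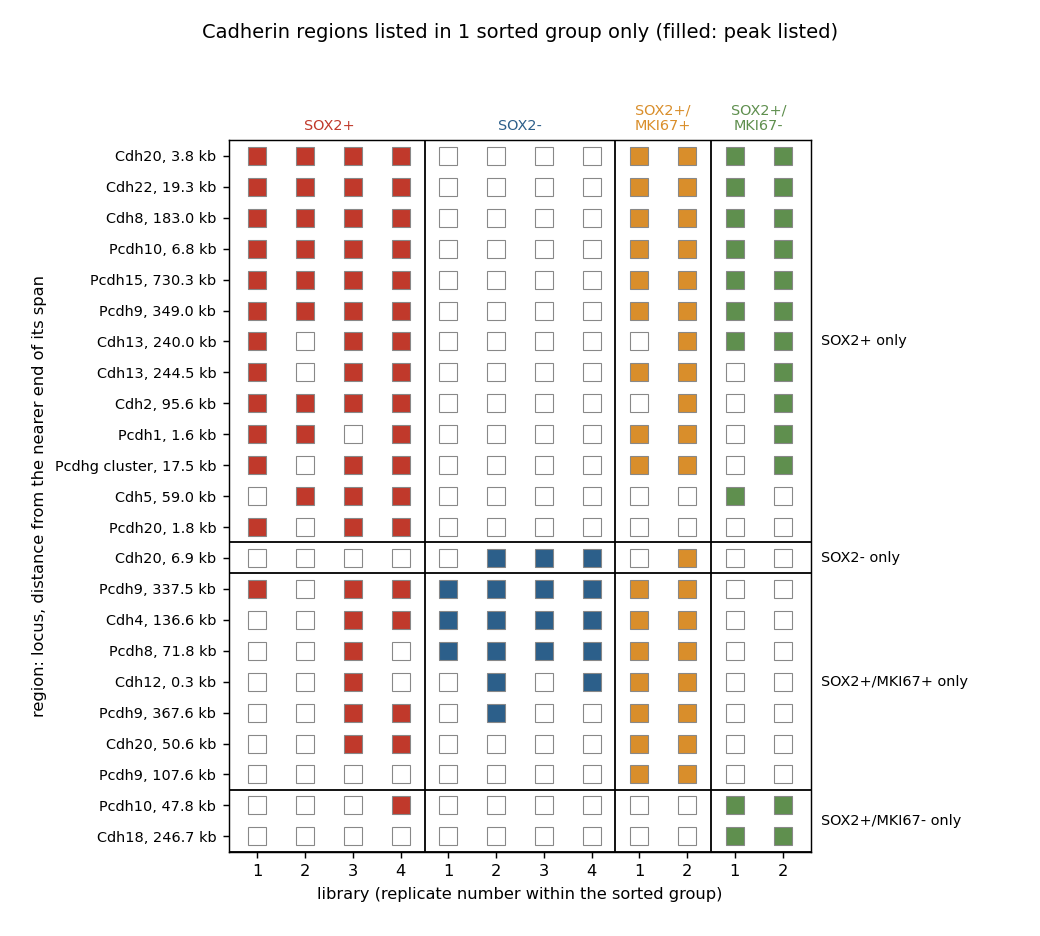
Regions at member loci listed in 1 sorted group only (rows, named by locus and distance from the nearer end of its span) by library (columns); a filled square is a listed peak and an open square none. The first 6 rows are filled in all 8 libraries of SOX2+ cells and open in all 4 SOX2- libraries, and 5 of the 7 SOX2+/MKI67+ rows are filled in at least 1 SOX2- library.

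In the MKI67 sort, 7 member regions were listed in 2 of 2 SOX2+/MKI67+ and 0 of 2 SOX2+/MKI67- libraries (3.45%, against 4.03% of all regions), and 2 the other way (0.985%, against 0.972%). Both shares stood near the background. Of the 7 regions, 3 were in Pcdh9 and the others lay at Cdh4, Cdh12, Cdh20 and Pcdh8. In the other sort, SOX2- libraries held 5 of the 7 (71.4%, against 83.8% of all such regions). The Pcdh9 region at chr14:93350897-93351477, the Cdh4 region at chr2:179762468-179763007 and the Pcdh8 region at chr14:79842742-79843435 were in 4 of 4 SOX2- libraries. SOX2+ libraries of that sort held 6 of the 7 (85.7%, against 78.1% of all such regions). All 6 were in SOX2+ replicate 3, and the share of that library over all such regions is not given here. Pcdh8 encodes a delta-2 protocadherin that is induced by neuronal activity. The 2 SOX2+/MKI67- regions lay in Cdh18 (chr15:23230629-23230880) and 47.8 kb before the start of Pcdh10 (chr3:45330389-45330714).

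The clustered protocadherins lie on chromosome 18. There, the Pcdha cluster had 31 peaks over the 12 libraries, the Pcdhg cluster 29 and the Pcdhb cluster, whose span is 256.4 kb, 0. A window at 2 of 14 Pcdha starts, 3 of 21 Pcdhg starts and 0 of 22 Pcdhb starts overlapped a peak in some library. The starts of Pcdhac1 and Pcdhgc3 were listed in all 12 libraries. These are C-type genes, which are not chosen at random like most genes of the clusters. The window at the start of Pcdhac2, also C-type, overlapped a peak in 4 of 4 SOX2+ libraries, 2 of 4 SOX2- libraries, 2 of 2 SOX2+/MKI67+ libraries and 0 of 2 SOX2+/MKI67- libraries. The joined region over that start, chr18:37143493-37144338, was also listed in SOX2+/MKI67- replicate 1, whose peak lay just outside the window. The SOX2- peaks at this start were in replicates 2 and 4, the longer lists of that group. Of the other C-type starts, Pcdhgc4 was listed in 2 libraries and Pcdhgc5 in 0, so C-type starts were not alike. Pcdhgb7, which is not C-type, was listed in 1.

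Beyond the starts, a Pcdha region at 248.3 kb from the cluster start was in 2 of 4 SOX2+, 3 of 4 SOX2-, 2 of 2 SOX2+/MKI67+ and 1 of 2 SOX2+/MKI67- libraries. A pair of neighbouring Pcdhg regions 162.6 and 164.6 kb from the cluster start was in 3 and 2 of 4 SOX2+ libraries and in 0 of 4 SOX2- libraries. In the MKI67 sort they were in 2 and 1 of 2 SOX2+/MKI67+ libraries and in 1 and 2 of 2 SOX2+/MKI67- libraries. The Pcdha cluster had 2, 2, 3 and 4 peaks in SOX2+ libraries and 1, 3, 2 and 3 in SOX2- libraries, and the Pcdhg cluster had 3, 1, 3 and 4 against 1, 3, 1 and 2. Both clusters overlapped between these groups.

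**Figure D5:**
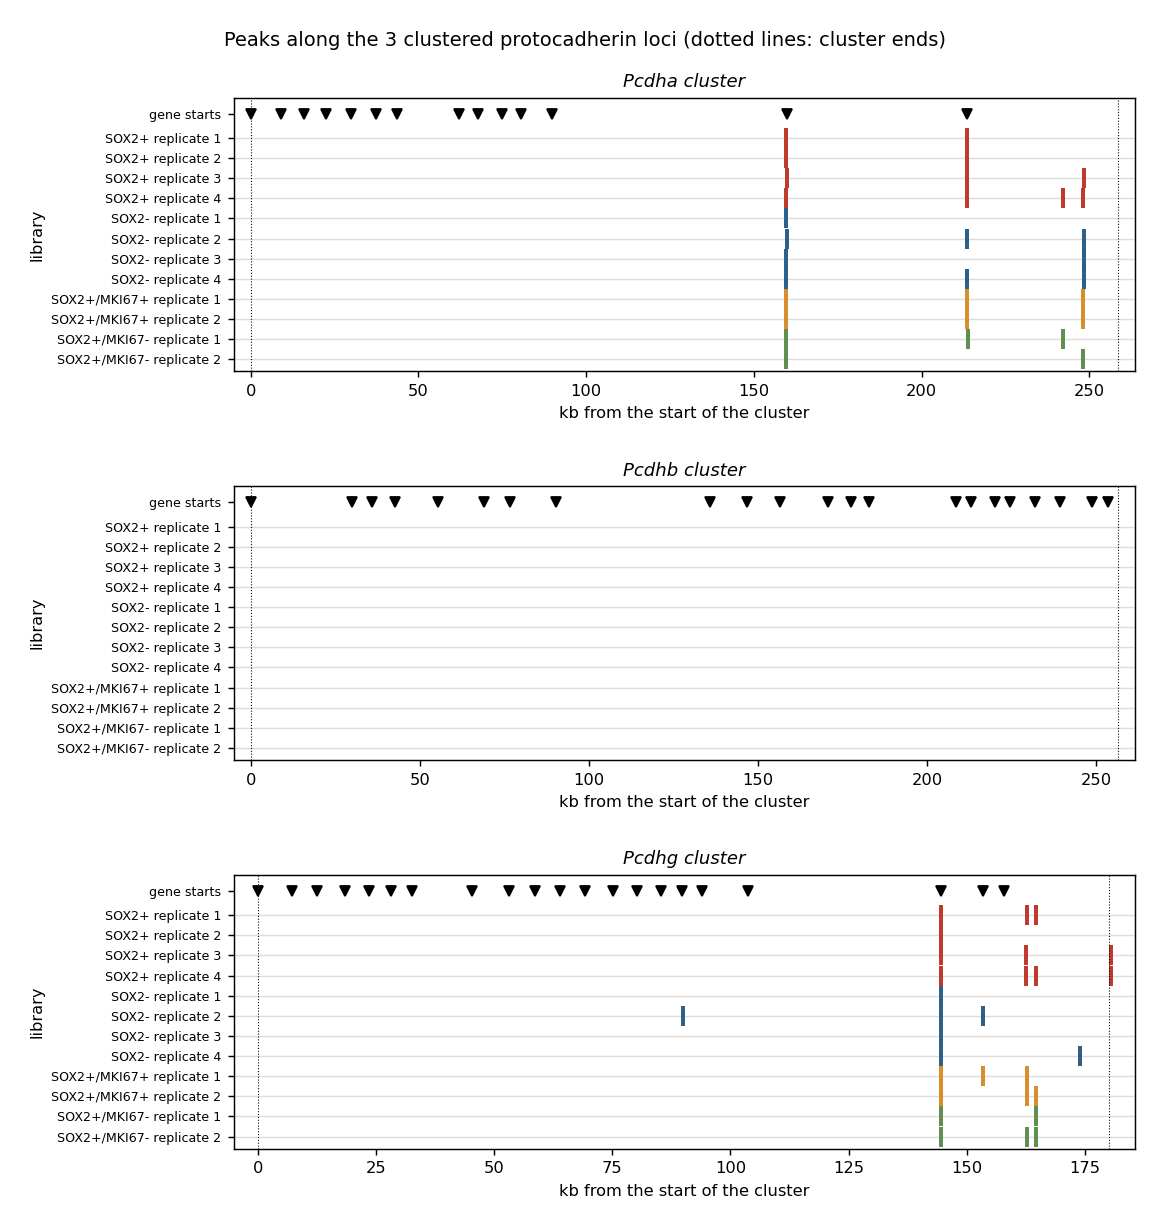
Positions of peaks (bars, 1 row for each library) along the Pcdha, Pcdhb and Pcdhg clusters in kb from the cluster start, with gene starts as triangles and dotted lines at the cluster ends. Peaks stand at the Pcdhac1 and Pcdhgc3 starts in all 12 rows, further peaks differ between rows, and none lies in the Pcdhb cluster.

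Partner genes of the cadherins were read in the same fit of SOX2+ against SOX2- cells. Of 17 catenins and junction partners tested, 0 were called (background 0.860%) and 4 had an unadjusted p under 0.05 (background 13.3%, which also stands beside the next lists). Of 9 repressors of cadherin transcription, 7 were tested, 0 were called and 1 had an unadjusted p under 0.05, and of 12 factors of cluster architecture the corresponding numbers were 9, 0 and 0. Of 23 other genes of the cadherin superfamily, 18 were tested, 0 were called and 3 had an unadjusted p under 0.05, with a median log2 difference of -0.29 (0.00 over all loci). The smallest adjusted p was that of Clstn2, a postsynaptic calsyntenin. It had 1, 0, 3 and 1 peaks in SOX2+ libraries and 1, 9, 3 and 7 in SOX2- libraries, a log2 difference of -1.51 ± 0.28 (SE; adjusted p = 0.0589 in limma). Zeb2, a repressor of Cdh1, had 1, 1, 2 and 2 peaks in SOX2+ libraries and 1, 5, 2 and 5 in SOX2- libraries, a log2 difference of -0.77 ± 0.16 (SE; adjusted p = 0.0778 in limma). Ctnnd1, the p120 catenin that keeps cadherins at the membrane, had 2 peaks in each SOX2+ library and 1, 1, 1 and 2 in SOX2- libraries. In all 3 the groups met or overlapped. Clstn2 and Zeb2 were named after their values were seen. In the other 3 comparisons 0 genes of these lists were called, against 0.212% of all loci in SOX2+/MKI67+ against SOX2+/MKI67-, 0.980% in SOX2+/MKI67- against SOX2- and 0.536% in SOX2+/MKI67+ against SOX2-.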

How the data were processed

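Per the labels' protocols, 35000 to 50000 sorted cells entered each ATAC-seq library, and sequencing was single-end with a length of 50 bp. Bowtie2, MACS2 and the mm10 build are named in the submitters' processing notes. Each library has a list of its own. Tool versions, settings, the treatment of duplicates and any transposase shift are not given in the sources used here. For each peak the authors deposited a score, a fold ratio against the local background, -log10 p-values and q-values, and a summit position, with no read counts. The -log10 q-value served only to rank peaks within a list, and the score and ratio were not used in any comparison. A missing peak can be one that narrowly failed the calling threshold, and the number of libraries limits the precision.

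Peaks were given to loci of the RefSeq table of GRCm38.p6, where a peak inside several spans went to the shortest. Counts per locus were tested with limma 3.58.1 in R 4.3.3 (lmFit, eBayes with trend) on log2(peaks + 1) with log10 list length as a covariate, with Benjamini-Hochberg adjustment over all loci tested. The fold scale depends on the pseudocount of 1. The fit was also run on simulated counts with known changes, whose outcome is not given here and is not used as support. Tables were made with Python 3.11.15, pandas 2.3.3 and numpy 2.4.6. Promoter windows were RefSeq sequences of 300 bp.

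Members named with values were the 12 with the smallest p in SOX2+ against SOX2-, the 6 with the smallest p in SOX2+/MKI67+ against SOX2+/MKI67-, the clusters, and 15 members known in brain, cerebellum or vessels, 25 in all. Other members, such as Pcdh1, Pcdh8 and Cdh8, were named after their values were seen, for groups that did not overlap or for their regions, and the motifs were added likewise. The members and gene lists were chosen with earlier results of these data known. Alternatives covered the pseudocount, the filter, list length, the window, the upper 50% of each list, the replicate number and each library left out.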

Additional observations from a re-analysis of the deposited data

Results flagged for a closer look

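In 48 sets of 4 libraries (named members in SOX2+ or in SOX2- cells), 1 library stood apart from the other 3 in 6 sets. For continuous values the rule flags about 1 in 20 by chance, a rate that does not apply to small tied counts. In SOX2+ cells, replicate 3 stood apart at Cdh12 with 3 peaks (0 in the others), at Cdh7 with 1 peak (0 in the others) and at Cdh10 with 2 peaks (1 in each of the others). SOX2+ replicate 4 stood apart at Cdh15 with 1 peak (0 in the others). In SOX2- cells, replicate 2, the longest list, stood apart at Pcdh10 with 2 peaks (1 in each of the others) and at Cdh15 with 1 peak (0 in the others). With counts this small, a difference of 1 peak is enough to set a library apart.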

How the results depend on the processing

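No named member changed side of the threshold in limma except in the settings named here, and 0 members were called in all comparisons under the other settings. Over 12 settings that each left out 1 library, the members called ranged from 0 to 2 in SOX2+ against SOX2- (2, Cdh12 and Cdh22, without SOX2+ replicate 3), 0 to 1 in SOX2+/MKI67- against SOX2- (1, Cdh12, without the same library), and 0 to 0 in the other comparisons. With only the groups compared in the fit, 1 was called in SOX2+/MKI67+ against SOX2+/MKI67- (Cdh12, whose values were identical within each group) and 1 in SOX2+/MKI67- against SOX2- (Cdh7). Loci called over the whole table moved more. In SOX2+ against SOX2- they were 227 with equal list lengths, 68 in the upper 50% of each list by q-value and 40 at gene ends only, against 122. In SOX2+/MKI67+ against SOX2+/MKI67- they were 55 with equal lengths, 11 among loci listed in 4 or more libraries and 691 with only the groups compared, against 30. In SOX2+/MKI67- against SOX2- they were 253 with equal lengths, 63 in the upper 50%, 91 within 10 kb, 48 at gene ends, 87 without the length term and 517 with only the groups compared, against 139. In SOX2+/MKI67+ against SOX2- they were 149 with equal lengths, 45 at gene ends and 331 with only the groups compared, against 76. Without the shortest list of each SOX2 group, a setting chosen after seeing the data, they were 246, 64, 282 and 197 in the same order. With 1 library left out they were 80 to 194, 31 to 78, 95 to 217 and 83 to 135. Same-numbered libraries did not deviate together (correlations -0.004, 0.409, 0.076 and -0.182 between SOX2+ and SOX2- and 0.062 for both MKI67 pairs), so the numbers were not used as pairs. The replicate block called 0 members in each comparison and 56, 27, 227 and 228 loci in that order. Member regions numbered 52 with equal list lengths, 80 in the upper 50% and 26 at gene ends, against 203. Of these, SOX2+ only regions numbered 6, 7 and 0, and 7 to 15 with 1 library left out, against 13. Over all regions they numbered 663, 726 and 195 in the first 3 settings, against 1814. SOX2- only regions numbered 2, 0, 0 and 0 to 5 in the same settings, against 1. Over all regions they numbered 394, 217 and 47 in the first 3, against 680. SOX2+/MKI67+ only regions numbered 3, 4 and 1, and 11 where peaks had to cover at least 50% of the region, against 7. Over all regions they numbered 298, 762 and 288, and 1892 with that cover, against 1784. SOX2+/MKI67- only regions numbered 1, 1 and 0, and 1 of 168 member regions within 10 kb, against 2. Over all regions they numbered 293, 177 and 52, and 274 within 10 kb, against 430. Peaks at member loci per 10000, in equal lists, the upper 50% and at gene ends, were 28.9, 28.0 and 10.9 in SOX2+, 24.3, 22.1 and 9.20 in SOX2-, 25.7, 30.1 and 9.50 in SOX2+/MKI67+ and 25.0, 28.8 and 8.40 in SOX2+/MKI67-. Within 10 kb they were 33.6 in SOX2+/MKI67+ and 27.4 in SOX2+/MKI67-. The signs of Cdh11, Cdh22, Cdh7, Cdh4 and Cdh12 in SOX2+ against SOX2- held in every setting that tested them (with equal list lengths Cdh7 and Cdh12 had too few peaks to be tested, and Cdh22 had a single peak over the SOX2+ libraries), and that of Pcdh10 in all but gene ends only, where its difference was 0. In the same comparison, 14 of 23 named members were at 0 or had the opposite sign in some setting, Cdh13, Cdh15, Cdh18, Cdh26 and Pcdh9 among them. Of the differences given above, opposite signs were -0.278 for Cdh5, 0.272 for Cdh20 and -0.015 for Pcdh17 within 10 kb, -0.244 for Cdh2 at gene ends, and -0.009 for Cdh24, -0.028 for Pcdh17 and -0.13 for the Pcdhg cluster in the upper 50%. Cdh24 had no peak in any SOX2+ or SOX2- library in the upper 50%, so its sign there is not a reversal. With 1 library left out Pcdh15 ran from -0.032 to 0.371 and Pcdh17 from -0.149 to 0.181. In SOX2+/MKI67+ against SOX2+/MKI67- this was so for 19 of 23. There the upper 50% gave -0.072 for Cdh12 and 0.391 for Cdh26, and opposite signs also for Cdh2, Cdh7, Cdh11, Cdh22, Pcdh15, Pcdh17, Pcdh19 and the Pcdhg cluster. In that setting Cdh12 and Cdh7 had no peak in either group. Pcdh15, Pcdh17, Pcdh19 and the Pcdhg cluster had 1 peak in each library of both groups. The signs at these loci thus came from the list length term. Over 92 differences of named members in the 4 comparisons, the sign was opposite in 147 of 2031 refits, 0 of them called. The causes were not tested. List length limits every value, since a missing peak can be an uncalled one.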
